A study of Mus musculus with 63 samples.

Results

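The genes described here encode MHC class I molecules and the machinery that loads them with peptide: the heavy chains H2-K1, H2-D1 and H2-Q2, the light chain B2m, the peptide transporter subunits Tap1 and Tap2, the loading factor Tapbp, the immunoproteasome subunits Psmb8 and Psmb9, and the transcriptional activator Nlrc5. These 10 of 54752 genes were taken by symbol from every count table of a study of the Mediator kinases CDK8 and CDK19 in the mouse small intestine. The set was chosen by measured values: Tap1 was lower in CDK8/19-deficient intestinal epithelial cells (IECs) while H2-Q2 was higher in CDK8/19-deficient organoids at day 10. Those contrasts therefore appear below as values without tests, and tests were run on the other organoid libraries.

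Class I molecules show fragments of the cell's own proteins to CD8+ T cells. The proteasome cuts the proteins, and in cells exposed to interferon Psmb8 and Psmb9 replace standard catalytic subunits of it. Tap1 and Tap2 form the channel that moves the peptides into the endoplasmic reticulum, where Tapbp (tapasin) bridges the channel to a heavy chain paired with B2m. Nlrc5 acts at the promoters of most of these genes, and interferon-γ raises them. In the intestinal epithelium class I genes are expressed at rest and respond to interferons made by neighbouring immune cells.

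Bulk poly-A RNA was sequenced from organoids, which are epithelium grown without other tissue, and from IECs taken from mice, with the strain given as C57BL/6 throughout. VillinCreERT2 is a Cre recombinase that is expressed in the intestinal epithelium and becomes active on exposure to tamoxifen or to its active form 4-hydroxytamoxifen (4-OHT). Organoids of 5 genotypes were collected 7 days after 24 h in 100 nM 4-OHT: VillinCreERT2 and C57BL/6 as controls, CDK8iIEC-KO (induced Cdk8 deletion), Cdk8fl/fl/Cdk19-/- (Cdk19 deletion with floxed Cdk8) and CDK8iIEC-KO/Cdk19-/- (both lost). A time course used 1 VillinCreERT2/Cdk8fl/fl/Cdk19-/- line given 4-OHT or 0.001% ethanol (EtOH) and sampled after 3, 5, 7 and 10 days, so both arms lacked Cdk19 and the 4-OHT arm lost Cdk8 in addition. The same line was treated in both ways in medium conditioned by Wnt3-expressing cells (Wnt3-CM) for 10 days. A CDK8iIEC-KO/Cdk19D173A/- line, whose remaining Cdk19 allele encodes a kinase-dead protein, was sampled at day 7 with EtOH or 4-OHT, and its columns were assigned by elimination. IECs came from VillinCreERT2 and CDK8iIEC-KO/Cdk19-/- mice 14 days after tamoxifen (80 mg/kg daily, 5 injections). Each of the 19 groups held 3 libraries. Within each organoid group the 3 libraries carried 1 line number and are cultures of a single line, so in the comparison of 5 genotypes the genotype and the line cannot be told apart, whereas the EtOH and 4-OHT arms shared a line. P-values for organoids measure the spread between cultures.

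The 57 libraries held 15485959 to 32909565 counted reads. Whole-gene counts did not show the deletions. Cdk8 lay at 65.1 to 67.2 CPM (reads of a gene, scaled to the size of the library) in CDK8iIEC-KO/Cdk19-/- and at 71.9 to 80.8 CPM in VillinCreERT2 organoids, and the deleted exons were not counted apart, so these counts do not check the labels. Epithelial markers (Epcam, Cdh1, Vil1 and 6 others) summed to at least 7330 CPM in every library. Markers of immune cells (20 genes, among them Ptprc, Cd3e and Cd8a) summed to 3.45 to 18.8 CPM in organoids, with 8 to 16 of the 20 at 0, and to 235 to 1890 CPM in IECs. One IEC library stood apart in the MHC region itself and is described with the IEC values.

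Of the 10 genes 8 lie on chromosome 17 and the others on chromosomes 2 and 8 (GRCm38, GENCODE vM21). From the centromere these are Tapbp at chr17:33915899-33929292 (+), H2-K1 at chr17:33996017-34000347 (-), Psmb9 at chr17:34181987-34187764 (-), Tap1 at chr17:34187553-34197225 (+) and Psmb8 at chr17:34197721-34201454 (+). They are followed by Tap2 at chr17:34203527-34216321 (+), H2-D1 at chr17:35262730-35267499 (+) and H2-Q2 at chr17:35342242-35346762 (+). B2m lies at chr2:122147686-122153083 (+) and Nlrc5 at chr8:94434356-94527272 (+). Tap1 and Psmb9 start head to head, and their gene models overlap by 212 bp on opposite strands. How strand and multiply mapped reads were counted is not given in the sources used here, so reads of that overlap, and reads shared among the near-identical heavy chain genes, could have been credited to either partner.

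Promoters of 8 of the 10 genes were found in a RefSeq table (GRCm38.p6, 250 bases before to 50 bases after each start), and Tap2 and Nlrc5 had no entry. Class I promoters are known for a conserved upstream module whose X2 part carries TGACG and whose Y part carries ATTGG, the element through which Nlrc5 acts. The 30 bases that span this pair are shown because B2m, H2-K1 and H2-D1 share the pair, beside the matching stretch of H2-Q2, with TGACG and ATTGG in capitals, 5′ to 3′ on the gene's own strand.
B2m, chr2:122147609-122147638 (+): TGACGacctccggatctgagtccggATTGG
H2-K1, chr17:34000359-34000388 (-): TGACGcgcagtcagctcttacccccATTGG
H2-D1, chr17:35262993-35263022 (+): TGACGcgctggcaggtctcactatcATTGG
H2-Q2, chr17:35342201-35342230 (+): gaattatctggcaggtctcatttccATTGG
Tap1, chr17:34187458-34187487 (+): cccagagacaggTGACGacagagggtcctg

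B2m, H2-K1 and H2-D1 carried both words with 20 bases between them, whereas the H2-Q2 promoter kept ATTGG and lacked TGACG. H2-K1 and H2-D1 matched at 23 of the 30 positions, H2-D1 and H2-Q2 at 21, and H2-K1 and H2-Q2 at 17. In Tap1 TGACG stood alone on the gene's strand, 86 bases before the start, and Psmb9, which reads from the other strand of the same DNA, held the same TGACG and an ATTGG. Tapbp held ATTGG at 2 places. The spacing was chosen after the members' sequences were seen. Across 32851 promoter windows, searched on both strands, 0.0944% held the pair at this spacing, 20.8% held TGACG and 37.4% ATTGG. A further word, 2 copies of GAAA with 2 free bases between them, which is the core of an interferon-stimulated response element, was present in 3.44% of windows and among these genes in B2m. It is shown in capitals, with TGACG and ATTGG, in the bases upstream of the B2m start.
B2m, chr2:122147437-122147685 (+): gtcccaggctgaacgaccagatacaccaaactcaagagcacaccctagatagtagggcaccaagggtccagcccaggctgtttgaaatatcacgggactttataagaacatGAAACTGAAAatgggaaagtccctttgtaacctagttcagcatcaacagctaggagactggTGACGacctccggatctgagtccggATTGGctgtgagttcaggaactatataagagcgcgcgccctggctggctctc

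Levels between genes were compared per kilobase of exon. At day 7 in the EtOH arm of the time course, B2m stood at 828 to 963 CPM per kb, H2-K1 at 132 to 147, H2-D1 at 43.7 to 51.7 and H2-Q2 at 31.3 to 33.8. Tapbp stood at 14.2 to 18.2 CPM per kb in the same libraries, and Tap2 at 0.859 to 1.2. Psmb9 was lower still, at 0.216 to 0.303 CPM per kb. The heavy chains and B2m were thus well covered, while the transporter and immunoproteasome genes of cultured epithelium rested on far fewer reads. Nlrc5 had at most 4 counts in any time course library and Psmb8 at most 3, and both failed the filter on low counts there.

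The IEC table, which was normalized by itself, held other proportions. In its 3 VillinCreERT2 libraries Tap1 lay at 133 to 149 CPM, Tap2 at 69.8 to 76.7 and Psmb9 at 67.9 to 97.3, against 4.42 to 5.8, 3.25 to 4.55 and 0.791 to 1.11 CPM in day 7 EtOH organoids. Psmb8 lay at 87.8 to 124 CPM and Nlrc5 at 6.04 to 8.91 CPM in these IECs. No test was made across tables.

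The question of the time course was which genes change after Cdk8 is lost from epithelium that already lacks Cdk19, and in which order. At day 7 the class I genes were higher in 4-OHT than in EtOH: 7 of the 8 that passed the filter rose past both cutoffs (adjusted p under 0.05 and fold change over 1.5), where 9% of 15447 genes tested rose and 9.25% fell. Their median log2 fold change was 1.13, against -0.01 over all genes. The eighth, H2-K1, was higher by 0.53 ± 0.06 (log2, SE, edgeR adjusted p = 4.75e-08), a fold of 1.44. In bulk RNA, more cells of a kind and more RNA per cell cannot be told apart.

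Other markers moved with the arms at day 7. Krt20, a keratin of differentiated enterocytes, stood at 223 to 259 CPM in EtOH and 439 to 471 CPM in 4-OHT, and the 9 epithelial markers summed to 8520 to 8770 and 9670 to 10200 CPM. Distal markers (Fabp6, Slc10a2 and Osr2) summed to 275, 231 and 232 CPM in EtOH and to 382, 365 and 358 CPM in 4-OHT. The 20 immune markers summed to 6.51 to 7.51 and 8.03 to 11.9 CPM, with 12 to 15 of them at 0, Cd8a among these in every library and Ptprc and Cd3e at no more than 2 counts. One library, EtOH replicate 2, stood apart with 39 CPM of mesenchymal and endothelial markers, against 1.57 to 2.32 CPM in the other day 7 libraries, and without it 7 of the 8 class I genes passed as before. The part of the other markers was not tested.

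H2-Q2, a heavy chain of the Qa cluster, had the largest difference at day 7 among the 3 heavy chains of the set. In EtOH it read 61, 48.9 and 55.9 CPM at day 3 and 68.3, 73.3 and 73.7 CPM at day 7. In 4-OHT it read 61.2, 70.6 and 60 CPM at day 3, 108, 103 and 92.7 CPM at day 5, and 165, 176 and 167 CPM at day 7. The arms overlapped at day 3 and were apart from day 5 on. H2-Q2 was higher 1.16-fold at day 3 (edgeR adjusted p = 0.0466), 1.45-fold at day 5 (edgeR adjusted p = 7.44e-06) and 2.36-fold at day 7 (edgeR adjusted p = 7.5e-13), so the fold cutoff was passed at day 7.

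The classical heavy chains H2-K1 and H2-D1, which present peptide to most CD8+ T cells, differed between arms at the first time point already but by less. At day 3 H2-K1 read 428, 419 and 426 CPM in 4-OHT and 356, 341 and 344 CPM in EtOH (1.22-fold, edgeR adjusted p = 0.000405). H2-D1 was 1.24-fold higher at day 3 (edgeR adjusted p = 0.00041), 1.32-fold at day 5 and 1.65-fold at day 7, when it read 199, 202 and 197 CPM in 4-OHT against 133, 117 and 113 CPM in EtOH. Both were also higher at day 7 than at day 3 within the EtOH arm, 1.17-fold for H2-K1 and 1.21-fold for H2-D1.

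B2m, the light chain shared by every class I heavy chain, did not differ between arms at day 3 beyond its spread, with 819, 805 and 725 CPM in 4-OHT and 913, 772 and 804 CPM in EtOH. At day 7 it read 1440, 1490 and 1430 CPM in 4-OHT and 828, 712 and 769 CPM in EtOH. The arms no longer overlapped, and the difference was 0.92 ± 0.07 (log2, SE, edgeR adjusted p = 6.75e-12). Tapbp went the same way: its EtOH libraries stayed between 50.5 and 67.7 CPM from day 3 to day 7, while those in 4-OHT went from 57.6 to 65.6 CPM at day 3 to 112 to 122 CPM at day 7 (log2 difference at day 7 1.03 ± 0.12, SE, edgeR adjusted p = 6.76e-07).

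Tap1, Tap2 and Psmb9 took another course, in which the level in the EtOH arm declined. Tap1 in EtOH read 13.3, 14.8 and 12.9 CPM at day 3 and 5.8, 5.79 and 4.42 CPM at day 7, a fall by 1.35 on the log2 scale (SE 0.17, edgeR adjusted p = 3.2e-07). In 4-OHT Tap1 read 14.7, 14 and 13.6 CPM at day 3 and 13.8, 14.3 and 13.3 CPM at day 7. Tap1 thus kept its day 3 level in the deleted arm while the control fell, and the difference at day 7 was 1.37 ± 0.17 (log2, SE, edgeR adjusted p = 1.26e-07). Over those 4 days in EtOH, 3 of the 8 genes fell and none rose past the cutoffs, where 10.9% of all genes fell and 5.11% rose. Over the same days in EtOH the markers Krt18 (by 0.81, SE 0.08) and Itgam (by 0.62, SE 0.22) fell and Krt20 (0.67 ± 0.08) and Slc10a2 (0.61 ± 0.16) rose, as did Col1a1, which had up to 531 counts in replicate 2 of day 7, and their part was not tested.

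Psmb9, the β1i subunit, had few reads throughout. In EtOH it went from 3.67, 3.61 and 2.93 CPM at day 3 to 1.11, 0.791 and 0.965 CPM at day 7, a fall by 1.83 on the log2 scale (SE 0.27, edgeR adjusted p = 4.92e-06). In 4-OHT it read 3.76, 3.77 and 3.2 CPM at day 3 and 3.18, 3.55 and 4.77 CPM at day 7. The 4-fold difference at day 7 (log2 2.00 ± 0.27, SE, edgeR adjusted p = 5.82e-07) was the largest among the 8 genes. Tap2 moved in both arms. At day 3 it read 5.61, 7.25 and 5.3 CPM in 4-OHT and 7.94, 7.44 and 6.49 CPM in EtOH. It fell by 0.87 (log2, SE 0.19, edgeR adjusted p = 0.000478) in EtOH, and at day 7 read 11.4, 10.2 and 8.16 CPM in 4-OHT against 4.19, 4.55 and 3.25 CPM in EtOH (log2 difference 1.31 ± 0.18, SE, edgeR adjusted p = 9.94e-07). Every 4-OHT library of day 7 thus lay above every 4-OHT library of day 3, a change within the arm that was not tested.

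**Figure D1:**
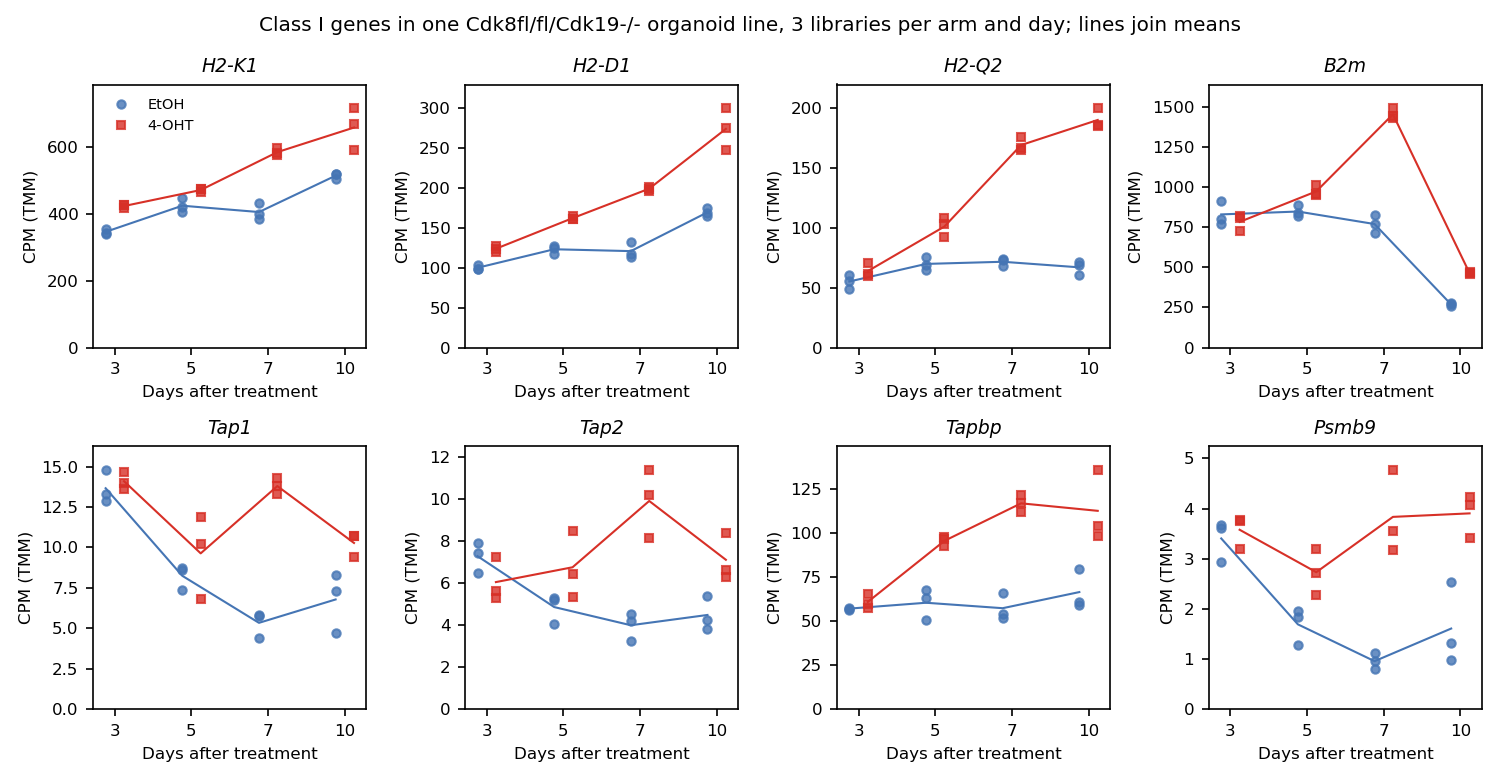
TMM-scaled CPM (linear axes from 0) of 8 class I genes against days after treatment in 1 VillinCreERT2/Cdk8fl/fl/Cdk19-/- organoid line, with EtOH as circles, 4-OHT as squares, 3 libraries per arm and day, and lines through the means. H2-Q2, B2m and Tapbp separate through higher 4-OHT values, while Tap1 and Psmb9 separate through lower EtOH values and Tap2 through both, with Tap1 at 13.3 to 14.3 CPM in 4-OHT and 4.42 to 5.8 CPM in EtOH at day 7.

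Smaller differences were present earlier. At day 3 edgeR, DESeq2 and limma-voom each called 0 of the 8 genes past both cutoffs (edgeR called 12.4% of all genes), although 3 had an unadjusted p under 0.05, all higher in 4-OHT. Of the 8, 2 had arms that did not overlap, H2-K1 and H2-D1, where 23.8% of all genes had 4-OHT above EtOH. At day 5 Tapbp (log2 0.66 ± 0.12, SE, edgeR adjusted p = 0.000249) and Psmb9 (0.69 ± 0.26, SE, edgeR adjusted p = 0.0333) passed both cutoffs, 2 of 8 against 8.58% of all genes. An adjusted p under 0.05 was reached by 7 of 8 genes at day 5, all higher in 4-OHT, and 7 had arms that did not overlap, where 22.8% of all genes had 4-OHT above EtOH. Markers were apart at day 5 as well. In 4-OHT and EtOH, Slc10a2 lay at 31.3 to 37.3 and 11.8 to 16.7 CPM and Krt20 at 341 to 367 and 217 to 259 CPM. Cdx1 lay at 242 to 254 and 345 to 378 CPM, and the part of these markers was not tested. Tapbp fell under the fold cutoff without EtOH replicate 3 (0.53), and Psmb9 lost its call without EtOH replicate 1 (0.74) or 2 (0.51) or without 4-OHT replicate 1 (0.68) or 2 (0.55). The test of the day 7 response against the day 3 response was passed by 6 of 8 genes, all higher at day 7 (12.4% of all genes were): H2-Q2, B2m, Tap1, Tap2, Tapbp and Psmb9. Markers differed between the arms at day 3 too: the epithelial Lgals4 (by 1.05, SE 0.07) and Cdx1 (by 0.91, SE 0.06) were lower in 4-OHT, and the distal Slc10a2 (1.75 ± 0.15) and the macrophage marker Cd68 (1.51 ± 0.21) were higher. The 20 immune markers summed to 16.5 to 18.8 CPM in 4-OHT and 8.91 to 10.3 CPM in EtOH at day 3, and the part of these markers was not tested. The difference between the responses was 0.24 ± 0.09 (log2, SE) for H2-K1 and 0.41 ± 0.09 for H2-D1. The column names of the days 3 and 5, day 7 and day 10 libraries follow different styles, which the labels do not explain, and each arm of a day shares its style.

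At day 10, a contrast that chose the set, H2-Q2 read 186, 200 and 185 CPM in 4-OHT and 60.6, 71.9 and 68.8 CPM in EtOH. All 8 measured genes had 4-OHT above EtOH (27.9% of all genes did), and the part of epithelial and distal markers was not tested here either. The fitted folds ran from 1.28 for H2-K1 to 2.43 for Psmb9 and 2.84 for H2-Q2. B2m was lower in both arms than at day 7, at 463, 471 and 457 CPM in 4-OHT and 256, 275 and 274 CPM in EtOH. Tap1 read 10.7, 10.7 and 9.44 CPM in 4-OHT and 4.7, 7.33 and 8.32 CPM in EtOH, a log2 difference of 0.60. Its arms lay closer than at day 7, with lower 4-OHT values and 2 of 3 EtOH libraries above every EtOH library of day 7.

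Other class I genes and their regulators were counted from lists of pathway genes. Of 23 further heavy chain genes 11 passed the filter in the time course, and 7 rose and none fell at day 7, with a median log2 difference of 1.00. H2-T3 (thymus leukemia antigen, a nonclassical molecule of the intestinal epithelium) rose by 1.69 ± 0.11 (SE, edgeR adjusted p = 1.76e-12), H2-Q1 by 1.32 ± 0.15 and H2-T23 (Qa-1, a ligand of NKG2A) by 1.23 ± 0.13. The general proteasome and peptide trimming list held 14 genes and 1 of them rose, Psmb10 (the third immunoproteasome subunit), by 0.73 ± 0.07 (edgeR adjusted p = 1.04e-09). Over all genes 9% rose, so that count is no result about the list. Among 6 other genes of peptide loading and quality control the tapasin relative Tapbpl rose, by 0.81 ± 0.10 (edgeR adjusted p = 7.18e-08), and calreticulin, calnexin and Pdia3 did not pass.

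Of 21 measured regulators 5 rose and none fell at day 7, among them Irf9 (1.34 ± 0.11), a transcription factor of the interferon response, Ifnlr1 (0.92 ± 0.09), the type III interferon receptor, and Irf1 (0.74 ± 0.10). Of 15 interferon-induced genes that served as a readout, 11 passed the filter and 8 rose, with a median log2 difference of 1.85. Ubd, among the 11, had 0 counts in every EtOH library of day 7 and 3 to 6 counts in 4-OHT. It passed the filter only through 4-OHT libraries, so its value is not read as a test, although the counts of this list and the median include it. The antiviral genes Rsad2 and Ifit1 were already higher at day 3, by 2.51 ± 0.39 and 1.61 ± 0.33 (log2, SE), and were higher by 3.01 ± 0.42 and 2.82 ± 0.35 at day 7. In EtOH 4 of the 11 readout genes fell between days 3 and 7. Oas1a, an antiviral gene as well, was higher by 1.55 ± 0.17 at day 7. Irf2, a repressor of interferon-induced genes that also takes part in class I transcription, was the 1 regulator that fell at day 3, by 0.61 ± 0.10 on the log2 scale.

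Some genes of these lists passed the cutoffs before day 7. At day 5, 4 of the 11 were higher, among them H2-T3 (1.28 ± 0.11), H2-Bl (0.92 ± 0.14) and H2-T23 (0.68 ± 0.13), and 4 of 21 regulators were, among them Irf9 (1.13 ± 0.11), Stat2 (0.94 ± 0.08) and Irf1 (0.81 ± 0.09). Of the readout genes 6 of 11 were higher at day 5, among them Ifit1 (1.85 ± 0.34) and Oas1a (2.14-fold, edgeR adjusted p = 5.64e-06). Within EtOH from day 3 to day 7, H2-T23 fell by 0.64 (SE 0.13), Irf9 by 0.79 (SE 0.11), Oas1a by 0.77 (SE 0.17) and the checkpoint ligand Cd274 by 1.88 (SE 0.32) on the log2 scale, while Fcgrt (0.67 ± 0.18) and Ide (0.69 ± 0.07) rose.

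The day 7 difference between arms lay above the day 3 difference for 8 of the 11 further heavy chains, H2-T3 (2.17 ± 0.16), H2-T23 (1.65 ± 0.19) and H2-Bl (1.14 ± 0.20) leading. In the trimming list 4 of 14 did so, among them Psmb10 (1.13 ± 0.10), the proteasome activator subunit Psme1 (0.93 ± 0.09) and the aminopeptidase Lap3 (0.81 ± 0.10), and Tapbpl (0.95 ± 0.14) did among the loading genes. Of the regulators 6 of 21 lay higher at day 7 in this sense and 1 lower, with Irf2 (1.13 ± 0.15), Irf9 (0.96 ± 0.15) and Irf1 (0.95 ± 0.13) among the former, and of the readout genes 3 of 11 did, among them Oas1a (1.22 ± 0.23) and Irgm1 (1.15 ± 0.13). For several of these the sign turned: at day 3 every 4-OHT library was below every EtOH library for Irf2 (-0.61), Psme1 (-0.56), Irgm1 (-0.55), Lap3 (-0.50), H2-T3 (-0.48), H2-T23 (-0.42), Psmb10 (-0.40) and Irf1 (-0.21).

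Over the 24 time course libraries the levels fell into like courses, given here as a description since the libraries share arms and days. Pearson's r of log2 CPM was 0.98 between H2-K1 and H2-D1, 0.90 between H2-Q2 and Tapbp, 0.89 between Tap1 and Psmb9, 0.80 between Tap1 and Tap2, and 0.06 between H2-K1 and Tap1. Tap1 and Psmb9 share the 212 bp named above. Among 15447 genes those most like Tap1 were Ifi27 (0.92), Vwa5a, Psmb9, Hyi and Dock3, and those most like H2-Q2 were Prdx5, Arpc5, Acadl, Naaa and Slc51b, each at 0.96. Psmb8 and Nlrc5 were too low to be included.

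In Wnt3-CM at day 10, where the same line was grown with Wnt3 supplied, H2-Q2, B2m and Psmb9 rose and the transporter did not. These were 3 of 8 tested genes, against 9.45% of 13745 genes that rose and 7.42% that fell. H2-Q2 read 224, 235 and 238 CPM in 4-OHT and 106, 126 and 116 CPM in EtOH (log2 1.01 ± 0.07, SE, edgeR adjusted p = 1.64e-10). B2m read 638, 637 and 643 CPM against 348, 394 and 372 CPM (log2 0.78 ± 0.07, SE, edgeR adjusted p = 3.95e-09). Psmb9 was higher by 0.85 ± 0.15 (SE, edgeR adjusted p = 6.82e-05), with every 4-OHT library above every EtOH library. Epithelial markers moved with the arms, summing to 12400, 11200 and 11300 CPM in 4-OHT and 15300, 15500 and 15100 CPM in EtOH. Of the 9, Krt18 (by 1.04, SE 0.07) and Cdh1 (by 0.61, SE 0.07) were lower past both cutoffs, as was the distal marker Slc10a2 (by 1.05, SE 0.10). The distal marker Osr2 went the other way, higher by 0.35 ± 0.09, under the fold cutoff. The immune markers summed to 3.99 to 4.72 CPM with the arms overlapping, and the part of the epithelial and distal markers was not tested.

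Tap1 read 24.3, 24.7 and 23.5 CPM in 4-OHT and 23, 34.2 and 31.3 CPM in EtOH, a log2 difference of -0.29 ± 0.12 (SE, edgeR adjusted p = 0.0523), and the arms overlapped. Tap2 differed by -0.01 ± 0.10 (edgeR adjusted p = 0.934). Tapbp was higher by 0.47 ± 0.07 and H2-K1 by 0.31 ± 0.07, under the fold cutoff. In the standard medium at day 10 the described differences were 0.60 for Tap1 and 0.67 for Tap2, and the media were not tested against each other because the rule used that contrast. In EtOH each measured gene of the interferon readout list had a higher mean in Wnt3-CM than in standard medium at day 10. The means were 73.3 and 2.39 CPM for Ifit1, 29.9 and 0.335 CPM for Ifit3, and 23.9 and 0.781 CPM for Isg15, differences that were not tested. Against that EtOH level 4 of 11 genes of the list fell and 1 rose in Wnt3-CM. Ifit3 fell by 1.54 ± 0.32 and Isg15 by 1.07 ± 0.10 on the log2 scale, whereas Oas1a, named after its value was seen, rose by 0.77 ± 0.12. The others of the 4 were Cxcl10 (fitted log2 difference -4.12) and Gbp2 (-1.56). They averaged 83 and 16.7 counts in EtOH, with 4-OHT at 0.0574 and 0.339 of the EtOH level. Both passed the filter only through their EtOH arm, so they are described and not read as tests. Among heavy chains outside the set, H2-T3 rose by 2.12 ± 0.09 (edgeR adjusted p = 5.21e-14) and Fcgrt, the neonatal Fc receptor, which also pairs with B2m, by 1.28 ± 0.09, and H2-Bl by 1.06 ± 0.10, 3 of the 4 that rose of 11. Psme1 was the 1 gene of the trimming list that rose (0.78 ± 0.07), and among 21 regulators Irf8 rose (0.77 ± 0.07) and the kinase Jak2 fell (by 0.67, SE 0.07). Over all genes 9.45% rose and 7.42% fell.

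The line with kinase-dead CDK19 asked whether losing catalytic activity has the effect of losing the protein. Its columns name a line number and the arm but no genotype, so every value of this line rests on their assignment by elimination. Psmb8 passed the filter only through the 4-OHT arm and is described apart. After 7 days 5 of the 8 other tested class I genes rose and none fell (6.05% of 15457 genes rose and 6.25% fell), and every 4-OHT library lay above every EtOH library for all 8 (21.6% of genes had this). H2-K1 read 687, 637 and 738 CPM in 4-OHT and 397, 334 and 337 CPM in EtOH (log2 0.95 ± 0.08, SE, edgeR adjusted p = 3.12e-05). H2-D1 rose by 0.71 ± 0.09, H2-Q2 by 0.85 ± 0.13 and B2m by 0.76 ± 0.08 (edgeR adjusted p = 0.000307, 0.00225 and 0.000126). Psmb9 rose by 1.09 ± 0.18 (edgeR adjusted p = 0.00166). Immune markers summed to 6.2 to 6.61 CPM in EtOH and 7.92 to 9.34 CPM in 4-OHT, with 8 to 11 of the 20 at 0, and proximal markers of the small intestine (5 genes) to 317 to 368 and 454 to 516 CPM, and their part was not tested.

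Psmb8, the β5i subunit, had 9, 7 and 4 counts in EtOH and 57, 44 and 49 counts in 4-OHT. The arms were apart, with a fitted log2 difference of 2.97, and because it was admitted by its high arm no test is given. Nlrc5 failed the filter, with 0, 2 and 1 counts in EtOH and 12, 8 and 5 counts in 4-OHT. These are among its highest counts in organoids, and they were not tested. Tap1 read 11.9, 13.6 and 13.9 CPM in 4-OHT and 8.81, 9.85 and 10.9 CPM in EtOH, 1.34-fold higher (edgeR adjusted p = 0.0234), which is under the fold cutoff, as were Tap2 at 1.38-fold and Tapbp at 1.39-fold.

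**Figure D2:**
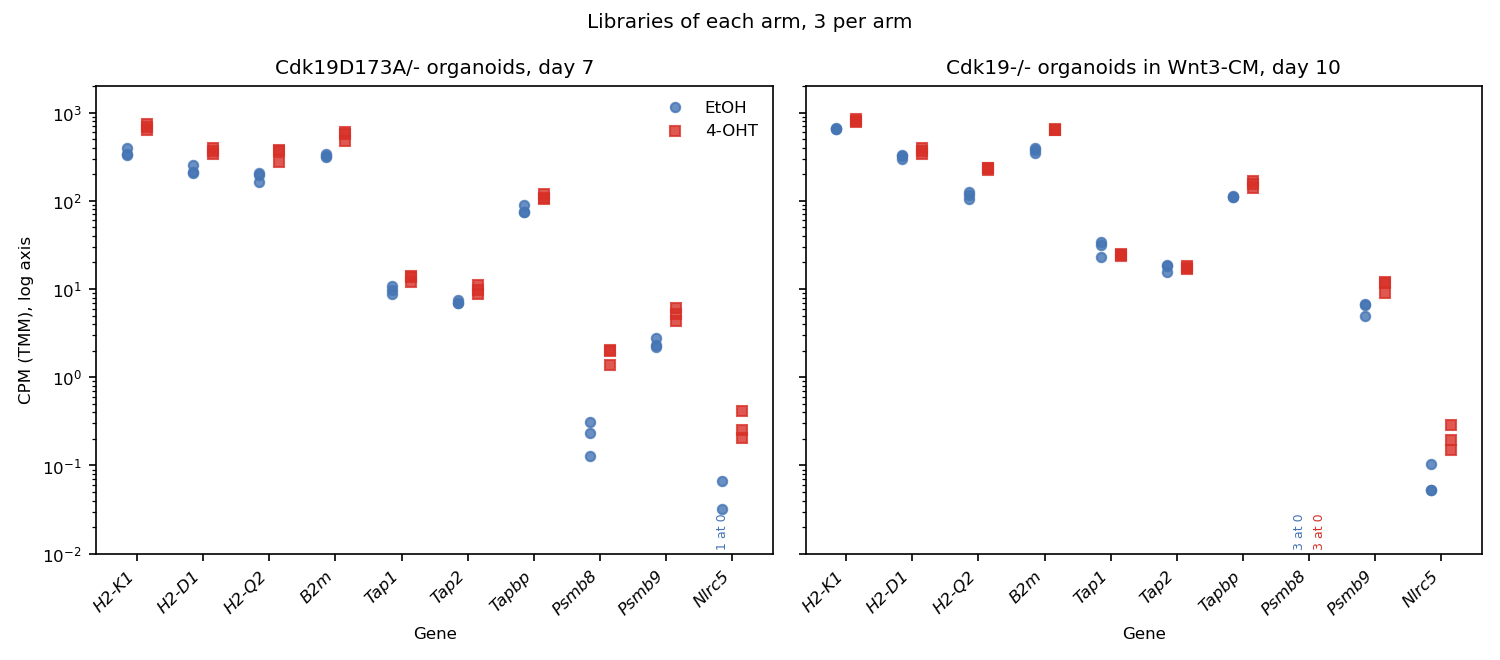
CPM (log axis) of the 10 genes in the 3 EtOH (circles) and 3 4-OHT (squares) libraries of the Cdk19D173A/- line at day 7 (left) and of the Cdk19-/- line in Wnt3-CM at day 10 (right), with libraries at 0 counted as text. In the left panel the arms are apart for all 10 genes, among them Psmb8 (9, 7 and 4 against 57, 44 and 49 counts), and in the right panel Tap1 and Tap2 overlap.

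The day 7 response of this line was set against that of the Cdk19-/- line in a joint fit of 12 libraries. Of 8 genes, Psmb8 left out, 3 had a smaller response with kinase-dead CDK19 and none a larger one, where 6.25% of 15636 genes were lower and 4.9% higher: Tap1 by 0.95 (log2, SE 0.18, edgeR adjusted p = 0.00189), Tap2 by 0.85 (SE 0.23, edgeR adjusted p = 0.014) and Psmb9 by 0.91 (SE 0.31, edgeR adjusted p = 0.0499). The Psmb9 value sat at the threshold and lost its call without any 1 of 10 of the 12 libraries, all but library 3 of the kinase-dead 4-OHT arm and replicate 1 of the day 7 4-OHT arm. The same 3 genes fell with time in the EtOH arm of the Cdk19-/- line, for which the kinase-dead line has no day 3 libraries. The other genes did not pass both cutoffs. H2-K1 had a larger response, by 0.42 ± 0.11 (SE, edgeR adjusted p = 0.0149), and Tapbp a smaller one, by 0.55 (SE 0.13, edgeR adjusted p = 0.00873), both under the fold cutoff. H2-Q2 was at -0.39 ± 0.15 (SE, edgeR adjusted p = 0.083), H2-D1 at -0.02 ± 0.12 and B2m at -0.16 ± 0.12. The genotype, the line and the table cannot be told apart here.

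In that fit 3 of 21 regulators also had a smaller response, Irf9 (by 0.97, SE 0.14), Ifnlr1 (by 0.79, SE 0.12) and Stat2 (by 0.67, SE 0.15), and none a larger one. Of the nonclassical heavy chains H2-T23 was lower by 1.19 (SE 0.18) and H2-T22 by 0.91 (SE 0.16), and Fcgrt was higher by 0.60 (SE 0.20). Within the kinase-dead line 6 of 14 further heavy chains rose, among them H2-Q7 (1.95 ± 0.34), Fcgrt (1.27 ± 0.09) and H2-Q10 (1.73 ± 0.29), the last of which the Cdk19-/- line barely expressed. H2-Q6, also counted among the 6, averaged 30 counts in 4-OHT at a fitted fold of 14.9. It passed the filter only through the 4-OHT arm, as Psmb8 did, so it is described and not read as a test. H2-Q10 had 13.8 to 69 CPM in the kinase-dead line, 86.1 to 286 CPM in the 5 genotypes and at most 0.532 CPM in the line of the time course and Wnt3-CM. None of the 21 regulators and 3 of 7 readout genes rose in this line, Igtp (1.68 ± 0.34), Oas1a (1.35 ± 0.16) and Ifit1 (1.20 ± 0.27).

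Across the 5 genotypes the question was which changes follow the loss of either kinase and which need the loss of both. Against VillinCreERT2, CDK8iIEC-KO/Cdk19-/- organoids had 5 of 9 tested class I genes higher and none lower (11.5% of 15125 genes were higher and 7.95% lower): B2m, Tap1, Tap2, Psmb8 and Psmb9. The heavy chains of the set were not among them. H2-K1 differed by 0.00 ± 0.05 (log2, SE), H2-Q2 by 0.06 ± 0.07, and H2-D1 was lower by 0.37 (SE 0.06, edgeR adjusted p = 1.09e-05), under the fold cutoff.

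Psmb9 had the largest difference. It read 8.66, 8.75 and 8.69 CPM in CDK8iIEC-KO/Cdk19-/- and 2.09, 1.92 and 2.1 CPM in VillinCreERT2 organoids (log2 2.09 ± 0.17, SE, edgeR adjusted p = 9.1e-11), while the other genotypes lay between, from 3.71 to 6.17 CPM. Tap2 read 11.8, 14 and 10.7 CPM against 3.89, 3.55 and 3.65 CPM (log2 1.72 ± 0.13, SE, edgeR adjusted p = 5.23e-11), and no library of another genotype exceeded 8.67 CPM. For Psmb8 the combined loss gave 6.12, 5.02 and 5.98 CPM, above every other organoid library of the table, which reached 2.85 CPM, and VillinCreERT2 gave 1.76, 1.58 and 1.65 CPM (log2 1.78 ± 0.23, SE, edgeR adjusted p = 4.04e-07).

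B2m read 580, 608 and 564 CPM after the combined loss and 353, 412 and 383 CPM in VillinCreERT2 (log2 0.61 ± 0.07, SE, edgeR adjusted p = 2.24e-08). Tap1 read 11.9, 12.6 and 9.69 CPM against 7.4, 6.91 and 7.5 CPM (log2 0.65 ± 0.12, SE, edgeR adjusted p = 5.26e-05). Both lay close to the fold cutoff. Without CDK8iIEC-KO/Cdk19-/- replicate 2, B2m fell to 0.58 and Tap1 to 0.57, and without VillinCreERT2 replicate 1 B2m fell to 0.55, all under the cutoff. Tapbp was 1.3-fold higher (edgeR adjusted p = 7.93e-06), with no overlap of the libraries.

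The control lines themselves differed in these genes. C57BL/6 organoids had 3 of 9 genes higher and 2 lower than VillinCreERT2 (15.5% of all genes were higher and 10.9% lower): Tap1 by 0.71 ± 0.12, Tap2 by 1.12 ± 0.14 and Psmb9 by 1.27 ± 0.18 were higher, and H2-D1 by 0.71 (SE 0.06) and Psmb8 by 0.87 (SE 0.32) were lower. Psmb8 there rested on 9, 19 and 18 counts in C57BL/6 and lost its call without C57BL/6 replicate 1 (-0.64) or VillinCreERT2 replicate 1 (-0.83). Set against C57BL/6, a control chosen after seeing the data, the combined loss kept the calls of Tap2 (0.60), Psmb8 (2.64) and Psmb9 (0.83), while Tap1 differed by -0.07 and B2m by 0.39. The direction of H2-D1 turned, from -0.37 to 0.34 (edgeR adjusted p = 2.83e-05). With the control lines averaged H2-D1 was at -0.01. Against C57BL/6 H2-Q2 turned as well, to -0.31 (edgeR adjusted p = 0.00126), and H2-K1 was at 0.26 (edgeR adjusted p = 0.000154), both under the fold cutoff. The columns of VillinCreERT2 and CDK8iIEC-KO follow another naming style than those of the other 3 lines, which the labels do not explain, and its part in the comparison was not tested. Distal markers of the small intestine (Fabp6, Slc10a2 and Osr2) summed to 367, 523 and 224 CPM in VillinCreERT2 and to 84.2, 126 and 87.3 CPM in CDK8iIEC-KO/Cdk19-/- organoids, and their part was not tested either.

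**Figure D3:**
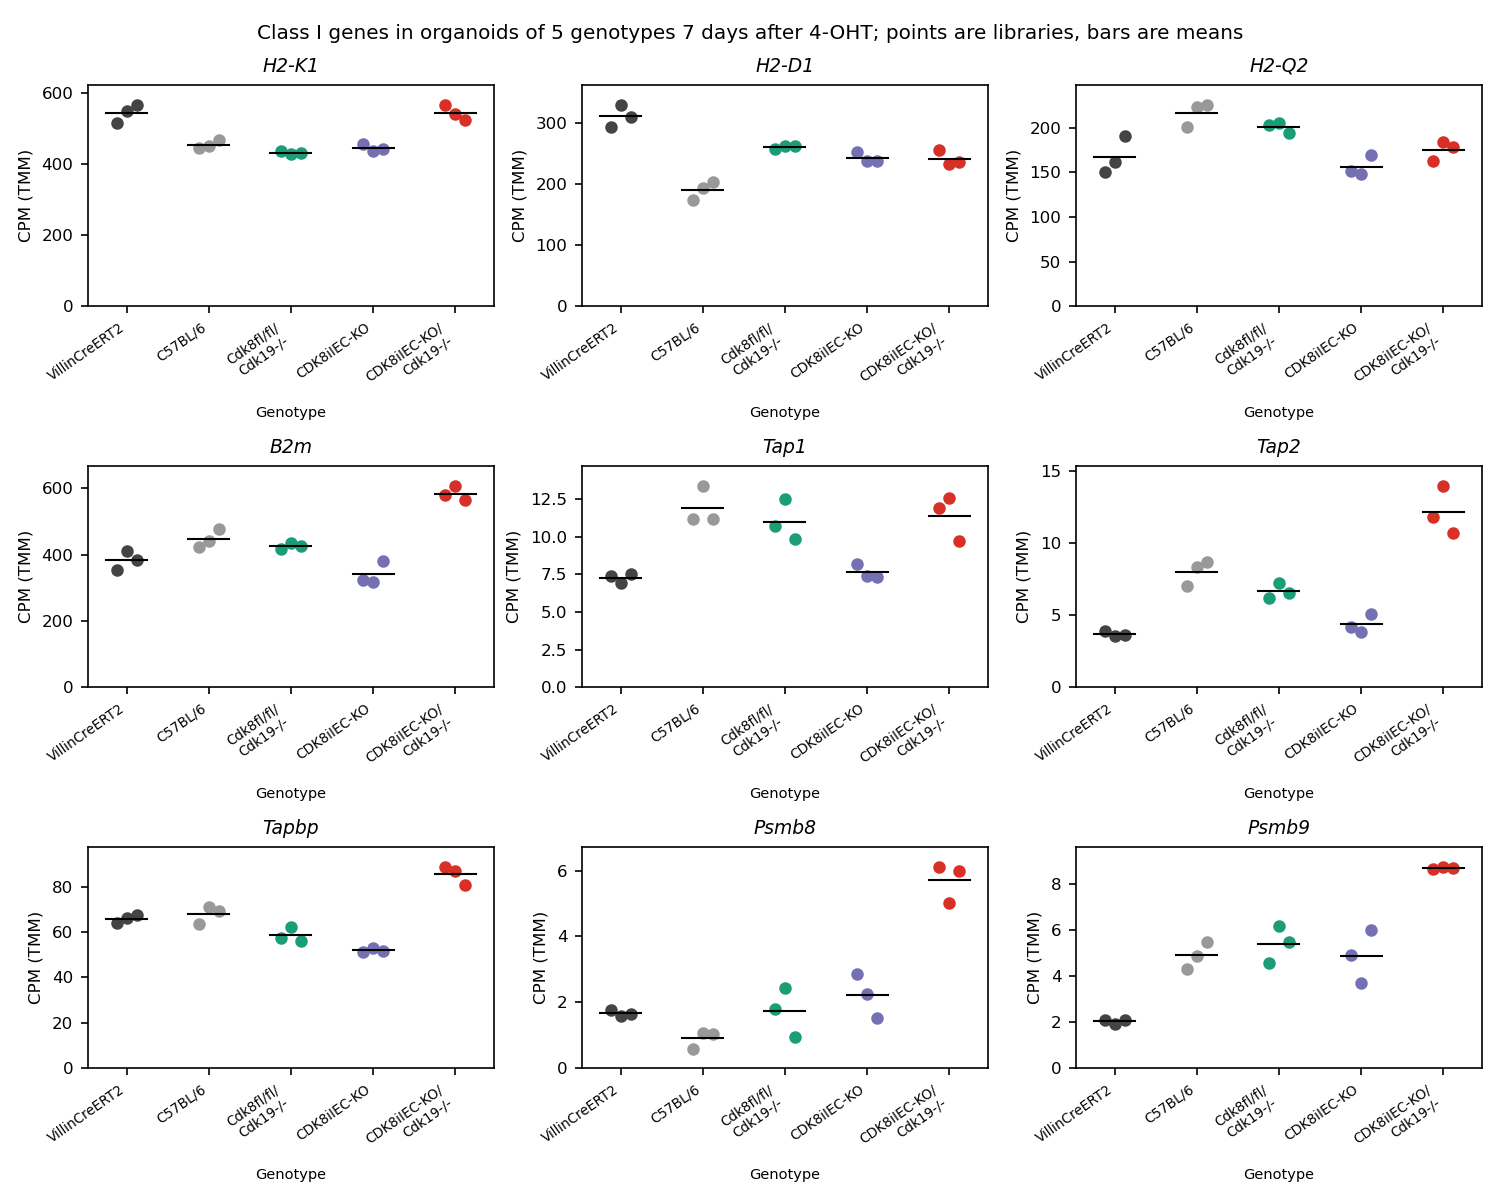
TMM-scaled CPM (linear axes from 0) of 9 class I genes in organoids of 5 genotypes 7 days after 4-OHT, with a point per library, 3 libraries per genotype, and a bar at each mean. For B2m, Tap2, Tapbp, Psmb8 and Psmb9 the 3 CDK8iIEC-KO/Cdk19-/- libraries lie above all others, whereas for Tap1 their 9.69 to 12.6 CPM overlap with C57BL/6 (11.2 to 13.4 CPM).

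Against its own control, each single loss gave fewer calls than the combined loss, a difference in counts that was not tested. In CDK8iIEC-KO organoids Psmb9 was higher than in VillinCreERT2 (4.93, 3.71 and 5.99 CPM; log2 1.26 ± 0.18, SE, edgeR adjusted p = 5.25e-06), 1 of 9 genes against 2.9% of all genes, and none was lower (4.34% of all genes). Against C57BL/6, the control chosen after seeing the data, 3 genes passed in CDK8iIEC-KO, as many as in the combined loss: Psmb8 (1.28) was higher and Tap1 (-0.64) and Tap2 (-0.88) were lower, while Psmb9 differed by -0.01. Regional markers moved with the contrast of CDK8iIEC-KO and VillinCreERT2. The distal ones summed to 85.5 to 90.8 CPM in CDK8iIEC-KO and 83.4 to 97.6 CPM in C57BL/6, under every VillinCreERT2 library. The proximal Cybrd1 lay at 58.5 to 66 CPM in CDK8iIEC-KO and 111 to 200 CPM in VillinCreERT2. The proximal Pdx1 (by 1.91, SE 0.26) and Slc40a1 (by 0.96, SE 0.14) were lower too. The proximal Gata4 was higher by 0.25 ± 0.06, under the fold cutoff, and Onecut2 differed by 0.05 ± 0.17. Their part was not tested. H2-K1, H2-D1 and Tapbp were 1.22-fold, 1.28-fold and 1.27-fold lower in CDK8iIEC-KO organoids, with no overlap of the libraries (20.3% of all genes had this) but under the fold cutoff. Against C57BL/6 the direction of H2-D1 turned, to 1.27-fold higher (edgeR adjusted p = 2.24e-05), and H2-K1 differed by -0.03. In Cdk8fl/fl/Cdk19-/- organoids edgeR and limma-voom called 0 of the 9 genes against C57BL/6 (edgeR called 5.25% of all genes) and DESeq2 called 1, Psmb8. At an unadjusted p under 0.05 edgeR had 2 higher and 2 lower. H2-D1 was 1.37-fold higher (edgeR adjusted p = 3.22e-06), Tapbp was 1.16-fold lower (edgeR adjusted p = 0.0153), and Psmb8, with 0.95 to 2.44 CPM against 0.571 to 1.08 CPM, was 1.89-fold higher (edgeR adjusted p = 0.0545).

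The combined loss exceeded the sum of the single losses on the log2 scale for 5 of 9 genes (11.3% of all genes were higher and 8.34% lower). The excess was 1.75 ± 0.18 (SE, edgeR adjusted p = 3.94e-08) for Tap2, 0.94 ± 0.09 for Tapbp, 0.85 ± 0.09 for B2m, 0.70 ± 0.16 for Tap1 and 0.69 ± 0.21 for Psmb9. Psmb9 lost this call without CDK8iIEC-KO replicate 2 (0.53). This contrast shares libraries with the comparisons of the single and the combined losses. VillinCreERT2 cancels out of it, so it rests on the 3 deleted genotypes and C57BL/6. The control decides part of it. With VillinCreERT2 as the control of both single losses, chosen after seeing the data, the calls of Tap2 (0.63), Tapbp (0.89) and B2m (0.62) remained, while Tap1 was at -0.02 and Psmb9 at -0.57, and H2-K1 (0.62) and Psmb8 (1.32) passed. With the control lines averaged, Tap1 was at 0.34 and Psmb9 at 0.06, neither past the cutoffs. In the excess as first given, Fabp6 (-5.80 ± 1.61), Slc10a2 (-3.20 ± 0.72), Cybrd1 (-4.97 ± 0.45) and the epithelial Cdx1 (-0.72 ± 0.09) were lower past both cutoffs. Onecut2 (0.85 ± 0.24) was higher. Between Cdk8fl/fl/Cdk19-/- and C57BL/6, Fabp6 (7.33 ± 1.12), Slc10a2 (4.23 ± 0.54), Cybrd1 (4.71 ± 0.38) and Slc40a1 (1.67 ± 0.18) were higher. The part of these markers was not tested.

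Of the 23 further heavy chain genes 14 were measured in this table, and 8 were higher and 1 lower after the combined loss, with a median log2 difference of 1.35. Beside this and the next list counts of the combined loss, 11.5% of all genes were higher and 7.95% lower. H2-Bl was higher by 2.71 ± 0.13 (edgeR adjusted p = 5.68e-15), H2-Q1 by 1.91 ± 0.10 and H2-T3 by 1.81 ± 0.09. H2-T24, named after its value was seen, was the one that was lower, by 1.82 (SE 0.36). In the trimming list 2 of 14 were lower, the aminopeptidase Lnpep by 0.80 (SE 0.08) and the insulin-degrading enzyme Ide by 0.75 (SE 0.05), and none of the 6 loading and quality control genes passed. Irf9 was the 1 regulator of 21 that was higher (0.60 ± 0.10), and 5 of 8 readout genes were higher, among them Oas1a (1.06 ± 0.11) and Ifit1 (0.93 ± 0.21). In CDK8iIEC-KO organoids 2 of the 14 heavy chains were higher (2.9% of all genes), among them H2-Q6 (1.05 ± 0.23). In Cdk8fl/fl/Cdk19-/- organoids 1 was (5.25% of all genes passed in either direction), with Oas1a (0.63 ± 0.14) higher among the readout genes. The control lines differed here too: C57BL/6 was higher than VillinCreERT2 for H2-Bl (0.99 ± 0.15), H2-Q1 (0.74 ± 0.10) and H2-T3 (0.74 ± 0.09), and lower for Ide (by 0.95, SE 0.05), Lnpep (by 0.74, SE 0.08) and Oas1a (by 0.99, SE 0.13). The combined loss exceeded the sum of the single losses for 8 of the 14 heavy chains (11.3% of all genes), among them H2-Bl (3.13 ± 0.20), H2-Q1 (1.75 ± 0.14) and H2-Q4 (1.17 ± 0.12), and for Irf9 (0.72 ± 0.15). It fell below that sum for 2 heavy chains (8.34% of all genes), for Ide (-0.98 ± 0.07) and for Lnpep (-0.67 ± 0.11). With VillinCreERT2 as the control of both single losses the calls of H2-Bl (2.14), H2-Q10 (1.28), H2-Q1 (1.01), Fcgrt (0.81), H2-Q4 (0.63) and Irf9 (0.77) remained. Those of H2-T3 (0.10), H2-T10 (0.15), H2-T23 (0.36), H2-T24 (-1.12), H2-Q6 (-0.68), Ide (-0.03) and Lnpep (0.07) did not. H2-M3 (-0.92) was lower past the cutoffs with that control.

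**Figure D4:**
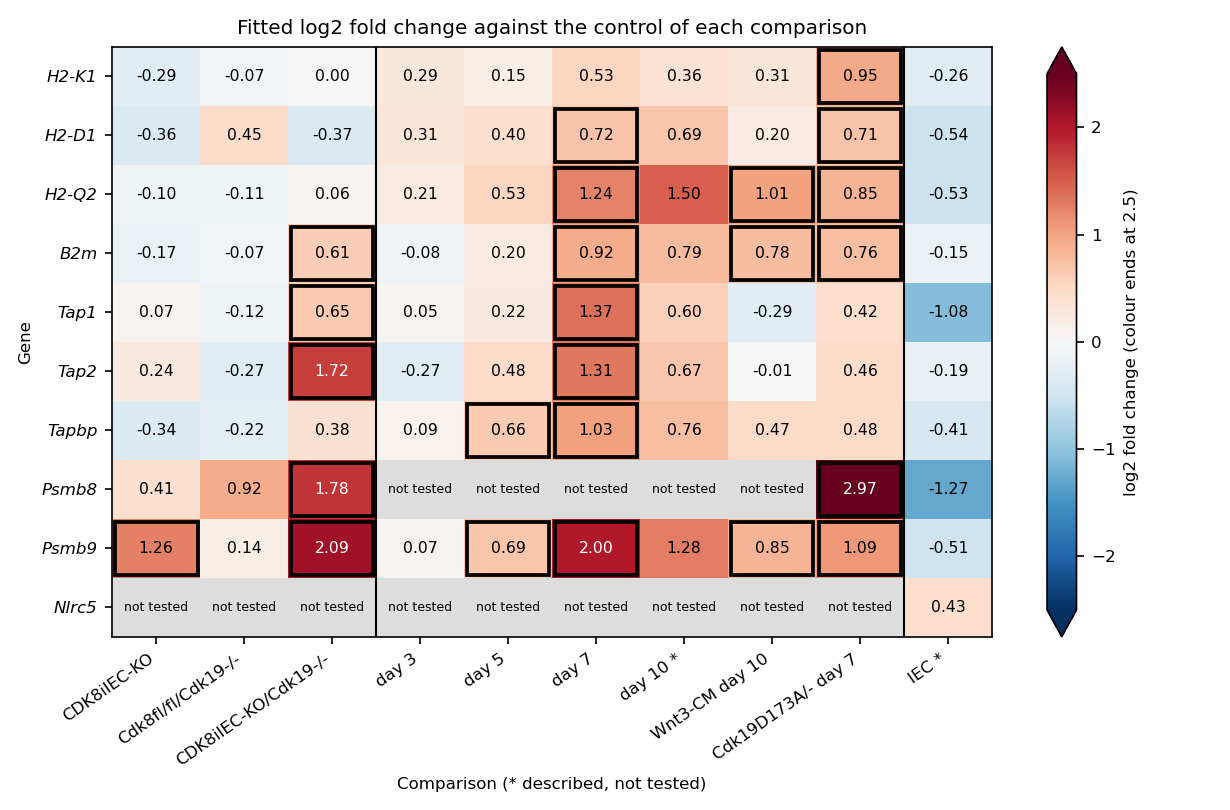
Fitted log2 fold changes of the 10 genes (rows) in 10 comparisons (columns), coloured from blue (lower) to red (higher), with black frames around those past both cutoffs and grey cells for genes that failed the filter. The framed cells gather in the columns of day 7, the combined loss and the Cdk19D173A/- line, and columns with an asterisk (day 10 and IEC) were described and not tested. In the Cdk19D173A/- column Psmb8 passed the filter only through its high arm. Its value there is described, and a frame around it is not read as a test.

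In IECs, the other contrast that chose the set, Tap1 was the lower gene. It read 60.4, 67.7 and 70.5 CPM in CDK8iIEC-KO/Cdk19-/- and 133, 138 and 149 CPM in VillinCreERT2 mice, a fitted log2 difference of -1.08. Of the 10 genes, 4 had every CDK8iIEC-KO/Cdk19-/- library below every VillinCreERT2 library (14.6% of 15182 genes had this) and none the reverse (12.2%). Beside Tap1 these were Psmb8, Tapbp and B2m. The median of the 10 fitted differences was -0.46, against 0.00 over all genes.

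CDK8iIEC-KO/Cdk19-/- replicate 1 stood apart in the MHC region. H2-Q2 read 38.3 CPM in it and 777 and 1120 CPM in the other CDK8iIEC-KO/Cdk19-/- mice, against 1000, 896 and 907 CPM in the controls. Psmb8 read 5.3 CPM in it and 55.9 and 72.6 CPM in the others, against 87.8, 112 and 124 CPM in the controls. Between Tapbp and H2-T3 (chr17:33915899-36190287), 9 of 130 genes (6.92%) were at least 4-fold lower in this library than in each of the 5 others, among them H2-Q2, H2-Q3, H2-Q6, H2-Q7, Psmb8 and Rps18, and 4 genes, H2-Bl, H2-DMb2, H2-K2 and H2-Ob, were at least 4-fold higher. Outside that interval 0.113% of 15052 genes were lower by as much and 29 genes higher, and in replicates 2 and 3 of the same group 1 and 0 of the 130 were lower. VillinCreERT2 replicate 1 also stood apart, with 108 genes (0.718%) at least 4-fold lower outside the interval and 2 of the 130 (1.54%) inside it. Each IEC library carried its own mouse number.

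Without that library the fitted log2 difference of H2-Q2 went from -0.53 to 0.02, that of Psmb8 from -1.27 to -0.75 and that of H2-D1 from -0.54 to -0.25. Tap1 stayed at -1.02, and Tapbp was at -0.27 and B2m at -0.18. Tap2 went the other way, from -0.19 to -0.47, since replicate 1 held the highest Tap2 of all 6 libraries (86.3 CPM, against 53.2 and 51.9 CPM in the other CDK8iIEC-KO/Cdk19-/- mice and 69.8, 72 and 76.7 CPM in the controls). Without VillinCreERT2 replicate 1 instead, Tap1 was at -1.11, H2-Q2 at -0.46 and Psmb8 at -1.39. Leaving out CDK8iIEC-KO/Cdk19-/- replicate 1 also took Psmb9 from -0.51 to -0.82, with 80.9 CPM in replicate 1 and 38.7 and 55.6 CPM in the others, against 67.9, 84.2 and 97.3 CPM.

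**Figure D5:**
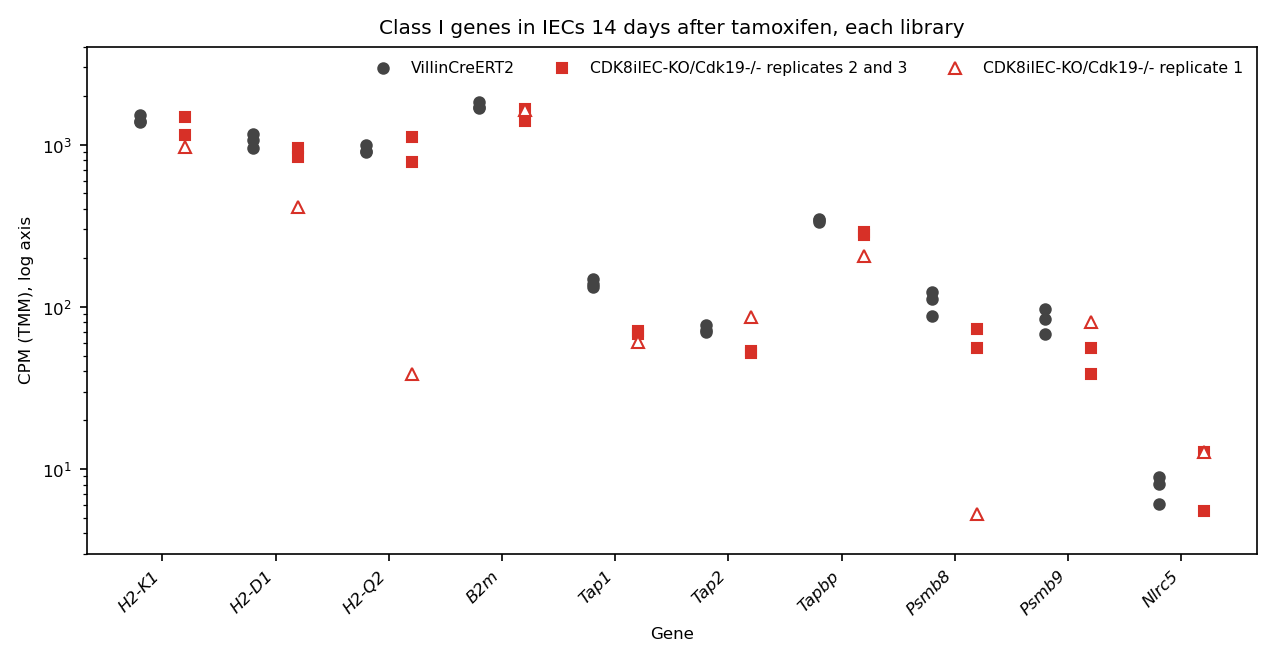
CPM (log axis) of the 10 genes in each IEC library 14 days after tamoxifen, with VillinCreERT2 as circles, CDK8iIEC-KO/Cdk19-/- replicates 2 and 3 as squares and replicate 1 as an open triangle. Tap1 is apart between genotypes in all libraries, and the triangle lies far below the rest for H2-Q2 (38.3 CPM) and Psmb8 (5.3 CPM).

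Nlrc5, measurable in IECs, read 12.8, 12.8 and 5.5 CPM in CDK8iIEC-KO/Cdk19-/- and 6.04, 8.91 and 8.08 CPM in VillinCreERT2 libraries, and the groups overlapped. H2-K1 read 967, 1150 and 1470 CPM against 1400, 1380 and 1530 CPM and overlapped as well. Of 22 regulators 7 had every CDK8iIEC-KO/Cdk19-/- library below every control and 1 had the reverse, and of 15 readout genes 4 and 2 did, where 14.6% and 12.2% of all genes did. Among these, named after their values were seen, the class II activator Ciita (-1.43), Irf8 (-0.70) and Irf1 (-0.51) were below the controls in every library, as were the interferon-induced Ubd (-2.18), Irgm1 (-0.79), Igtp (-0.75) and Ifit3 (-0.85), whereas Rsad2 (0.53) and Gbp7 (0.74) were above.

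The IEC samples also differed in the cells they held. Immune markers summed to 1890, 1300 and 1060 CPM in CDK8iIEC-KO/Cdk19-/- and to 235, 758 and 280 CPM in VillinCreERT2 libraries, all 20 markers had a higher fitted mean in the former, 10 of 20 without overlap, and none was at 0. Markers of mesenchyme and endothelium (9 genes) summed to 814, 529 and 399 CPM against 6.8, 794 and 41.7 CPM. Epithelial markers summed to 12500, 11100 and 12600 CPM against 13900, 13400 and 13800 CPM. The part of these cells in the class I values was not tested.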

How the data were processed

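RNA-Seq of 57 of the 63 labelled samples was analysed from 4 tables of counts. The authors deposited raw counts per gene, without normalization, from 100 bp paired-end reads; the submitters' processing notes name STAR 2.5.2, featureCounts of Subread 1.6.3 and mm10, and strand setting and annotation release are not given in the sources used here. For IECs with kinase-dead CDK19, 6 columns could not be tied to a group and were not used. Groups came from the labels. The Cdk19D173A/- columns were assigned by elimination and the Wnt3-CM columns by name.

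Each table was normalized by itself (TMM), filtered with filterByExpr and fitted with the robust quasi-likelihood F test of edgeR 4.0.16 in R 4.3.3, with Benjamini-Hochberg adjustment over all genes of a fit (15125 for the 5 genotypes, 15447 for the time course, 13745 for Wnt3-CM, 15457 for Cdk19D173A/-, 15182 for IECs, 15636 for the joint fit). A gene was called where the adjusted p was under 0.05 and the fold over 1.5. Standard errors are the log2 fold change over the root of F, and CPM uses TMM-scaled totals. The fit was tested on simulated data. Alternatives were other filters (none, or 10 counts in every library), upper quartile and RLE factors, limma-voom 3.58.1, DESeq2 1.42.0, only the groups compared, other controls, the replicate number as a block, and each library left out.

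The members and lists were chosen with earlier results of these data known. All 10 members are named, and in each tested comparison up to 3 genes of each list with the largest changes past the cutoffs and a mean of at least 50 counts in the higher group. Of the promoter search, 1 motif is not reported here. Depth limits Psmb8, Psmb9 and Nlrc5 most. For the 5 genotypes, the time course and IECs, replicate numbers did not pair samples. The lowest correlation of deviations between same-numbered libraries was -0.07, -0.14 and -0.41 there, under the threshold of 0.1. It was at or close to the threshold for Wnt3-CM (0.10, median 0.13) and Cdk19D173A/- (0.09, median 0.19), whose numbers come from the column names.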

Additional observations from a re-analysis of the deposited data

Results flagged for a closer look

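In 3 contrasts the response of class I genes differed between settings by a test of the difference itself (edgeR, log2 scale, SE, 3 libraries per group). The day 7 response of the time course exceeded the day 3 response for H2-Q2 by 1.03 ± 0.11, B2m by 1.00 ± 0.09, Tap1 by 1.32 ± 0.23, Tap2 by 1.58 ± 0.26, Tapbp by 0.93 ± 0.18 and Psmb9 by 1.93 ± 0.36 (edgeR adjusted p from 9.3e-10 for B2m to 0.000169 for Tapbp). For Tap1, Tap2 and Psmb9 the EtOH arm fell over the same days, and for H2-Q2, B2m and Tapbp it did not.

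The combined loss of both kinases exceeded the sum of the single losses for B2m by 0.85 ± 0.09, Tap1 by 0.70 ± 0.16, Tap2 by 1.75 ± 0.18, Tapbp by 0.94 ± 0.09 and Psmb9 by 0.69 ± 0.21 (edgeR adjusted p from 3.62e-09 for Tapbp to 0.0106 for Psmb9). VillinCreERT2 cancels out of this contrast, which rests on the 3 deleted genotypes and C57BL/6. Regional markers differed in it too, with Fabp6 at -5.80, Slc10a2 at -3.20, Cybrd1 at -4.97 and Onecut2 at 0.85, and their part was not tested. With VillinCreERT2 as the control of both single losses the calls of B2m (0.62), Tap2 (0.63) and Tapbp (0.89) remained, and Tap1 was at -0.02 and Psmb9 at -0.57.

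The response of the line with kinase-dead CDK19 was smaller than that of the Cdk19-/- line for Tap1 (-0.95 ± 0.18), Tap2 (-0.85 ± 0.23) and Psmb9 (-0.91 ± 0.31; edgeR adjusted p = 0.0499). The lines were deposited in separate tables, and the line, the table and the genotype cannot be told apart.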

How the results depend on the processing

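Of 224 recomputed counts and medians, 211 stayed within the limits set for them, 13 moved and 0 changed direction. The numbers of calls at day 7 (7), in the Cdk19D173A/- line (6, Psmb8 included), in Wnt3-CM (3), for the day 7 response against the day 3 response (6) and for EtOH over time (3) did not change with any library left out. With one library left out, calls at day 5 ranged from 1 to 3, after the combined loss from 3 to 5, for Cdk8fl/fl/Cdk19-/- from 0 to 1, for the control lines from 4 to 5, for the excess from 4 to 5 and for the kinase-dead line against the Cdk19-/- line from 2 to 4. The median of the IEC values ranged from -0.48 to -0.26, and that at day 10 from 0.68 to 0.79. For Cdk8fl/fl/Cdk19-/- the count was 1 in place of 0 with no filter, with DESeq2 and with the mean of both control lines, Psmb8 (0.93 and 0.94) in the first cases and Psmb9 (0.77) in the last. With the mean of both control lines, CDK8iIEC-KO had 2 calls and the combined loss 3, and Tap1 (-0.29) and Tap2 (-0.32) turned negative in CDK8iIEC-KO. With C57BL/6 as the control, chosen after seeing the data, both had 3 calls. In CDK8iIEC-KO these were Psmb8 (1.28, higher), Tap1 (-0.64) and Tap2 (-0.88), and Psmb9 was at -0.01. In the combined loss Tap1 was at -0.07 and H2-Q2 at -0.31. H2-D1 turned to 0.34 in the combined loss and to 0.35 in CDK8iIEC-KO, and was at -0.01 in both against the mean of both control lines. For the excess of the combined loss, also after seeing the data, VillinCreERT2 as the control of both single losses kept 5 calls but turned H2-D1 (0.25), H2-Q2 (-0.10), Tap1 (-0.02) and Psmb9 (-0.57), and the mean of both lines left 4. The control lines differed in these genes, so the choice of control sets these values. H2-Q2 in IECs turned to 0.02 without CDK8iIEC-KO/Cdk19-/- replicate 1, and its values with one library left out ranged from -1.20 to 0.02 (-1.24 with the replicate block). For the kinase-dead line against the Cdk19-/- line, Psmb9 lost its call with no filter (-0.94) and with limma-voom (-0.90), and the cause was not tested. Of 762 values of single genes with one library left out, 732 kept their direction and their side of the threshold (for IECs and day 10, where no test was made, their direction), 21 lost a call, 8 gained one and 1 changed direction. Upper quartile and RLE factors changed none of 105 each. The replicate number as a block changed none of the 12 counts it could be fitted for (5 calls for the combined loss and 7 at day 7, as without it). For Wnt3-CM, Cdk19D173A/- and the joint fit, whose columns were tied to groups and not to numbered samples, a replicate block on the numbers in the column names, added after seeing the data, changed no call (3, 6 and 3).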
